A study of Mus musculus with 8 samples.

Results

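Transcripts of 41 genes that regulate or carry out autophagy and lysosomal degradation were examined in tibialis anterior (TA) muscle of mice without Klotho. The genes were picked by symbol from the 12551 genes in the deposited counts, so all 41 are present by choice. RNA was sequenced from 4 wild-type (WT, Klotho wt/wt) and 4 homozygous knockout (KL-/-, Klotho null/null) males that were 7 weeks old. Both genotypes came from crosses of Klotho+/- mice on a mixed background. The knockout affects every tissue, so the loss of Klotho in muscle and its loss in kidney or elsewhere cannot be told apart. The whole muscle was frozen and extracted, and in such bulk samples fewer cells of a type and less RNA per cell cannot be told apart.

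In macroautophagy, a double membrane grows around cytoplasm, proteins or organelles, closes into an autophagosome and fuses with a lysosome, where acid hydrolases degrade the cargo. The ULK1 kinase complex and the class III phosphatidylinositol 3-kinase (PI3K) complex start the membrane, ATG9 vesicles and ATG2 supply its lipids, and 2 ubiquitin-like conjugation systems attach Atg8-family proteins (LC3 and GABARAP) to it, where cargo receptors bind them. In skeletal muscle, autophagy removes damaged mitochondria and contributes to the loss of mass in fasting and denervation, and the transcription factors TFEB and FoxO3 are known to raise many of its genes.

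Of the 41 genes, 6 rose and 2 fell in KL-/- muscle (edgeR's quasi-likelihood test, Benjamini-Hochberg adjusted over all 12551 genes, FDR under 0.05). *Pink1*, *Map1lc3a*, *Ctsl*, *Map1lc3b*, *Wipi2* and *Becn1* were higher, and *Atg12* and *Ctsd* were lower. The 8 genes make up 19.5% of the 41, where 14.0% of all genes tested passed. The 6 higher genes are 14.6% of the 41 against 7.35% of all genes, and the 2 lower ones 4.88% against 6.67%. The changes were small. Log2 fold changes of KL-/- over WT ran from −0.38 to 0.58, only *Pink1* and *Map1lc3a* reached an absolute value of 0.5, and 25 of the 41 were positive. The median was 0.093, compared with −0.016 over all genes. In 9 of the 41 genes (22.0%) all KL-/- samples were higher than all WT samples, against 10.2% of all genes, and in 2 (4.88%) all were lower, against 9.47%, or 19.7% of all genes for both directions. The filter on low counts removed 0 of the 12551 genes, so passing it does not set the 41 apart. Of the 12551, 12173 had at least 10 counts in every sample, so the deposited counts hold few weakly expressed genes. Whether genes were removed before deposit is not stated in the study's methods, and shares of all genes refer to these 12551.

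**Figure D1:**
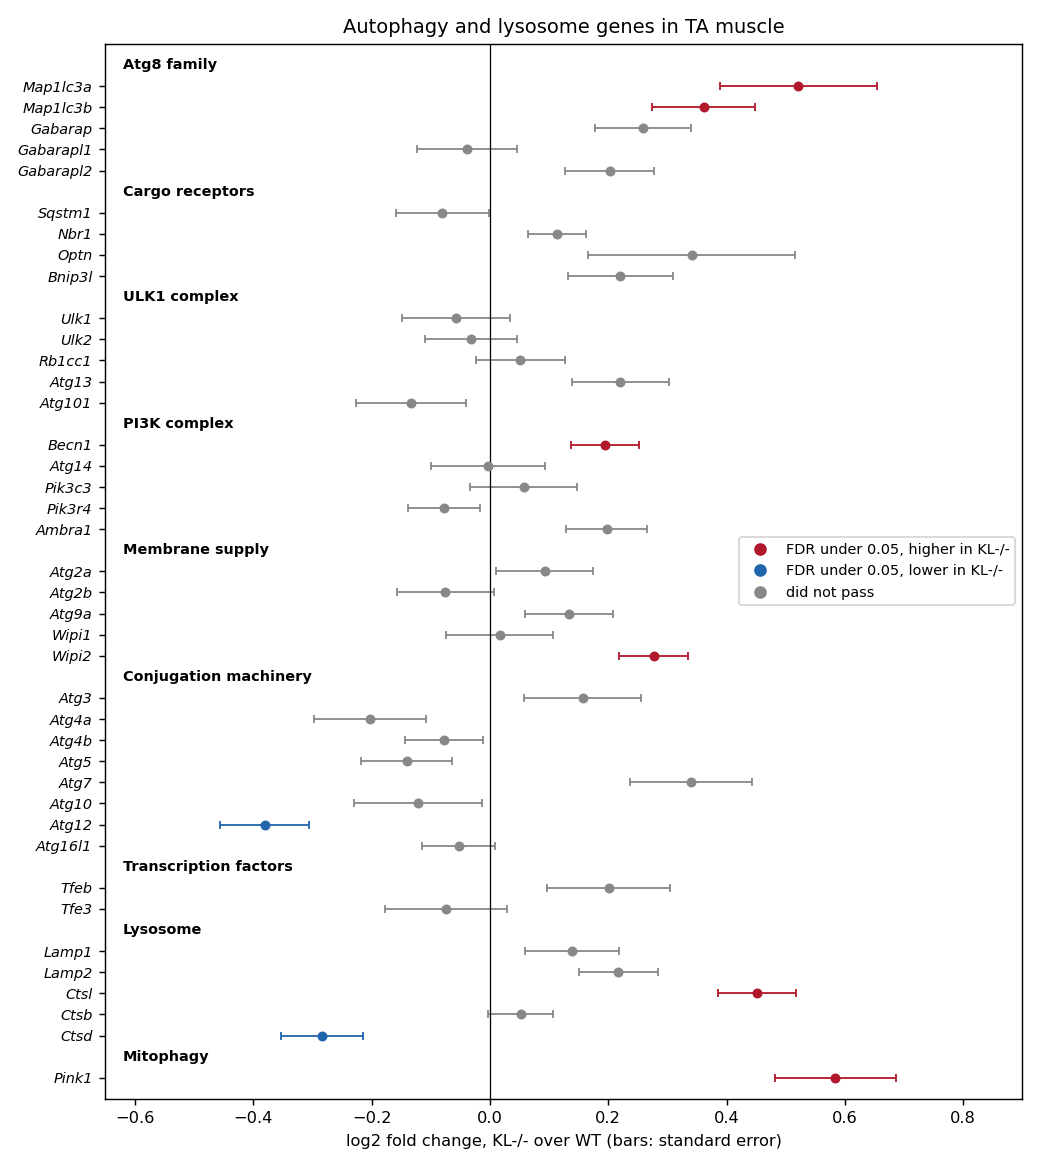
Log2 fold change of KL-/- over WT (horizontal axis) for 40 of the 41 genes, grouped by role, with its standard error (SE) as a bar. Colored points passed an FDR under 0.05, 6 of them to the right of 0 and 2 to the left, and the values run from −0.38 for *Atg12* to 0.58 for *Pink1*.

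Library totals were 20860262 to 26501093 counts in WT and 22061526 to 29273758 in KL-/- muscles (two-sided exact permutation test, p = 0.371). Levels are given as CPM, read counts relative to a library size scaled with TMM factors. The factors lay between 1.02 and 1.05 in WT and between 0.950 and 0.980 in KL-/- muscles (exact permutation test, p = 0.0286, the smallest that 70 relabelings allow). Fast muscle fibre markers summed to 137903 to 159863 CPM in WT and 159812 to 207220 CPM in KL-/-, which matches the labelled tissue. *Kl* was not analysed here, and genotypes rest on the labels. In the labels KL-/- replicate 3 has its own batch date, which the other 7 libraries do not share, and without it 3 of the 41 genes passed, *Pink1*, *Ctsl* and *Atg12*, as did 6.07% of all genes. KL-/- replicate 2 lay closest to WT, with a median of 0.053 over the 41 genes on the log2 scale against the WT means, where the other KL-/- samples lay at 0.077 to 0.144 and WT samples at −0.062 to 0.049. Without KL-/- replicate 2, 15 of the 41 passed, the 8 above together with *Gabarap*, *Gabarapl2*, *Tfeb*, *Optn*, *Atg13*, *Ambra1* and *Atg7*, while 22.0% of all genes passed in that fit.

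With levels divided by the length of counted exon, the 41 genes covered a wide range. In WT muscle the most abundant was *Ctsd* at 412 ± 32.0 CPM per kb (SD, n = 4), followed by *Pink1* at 321 ± 35.2 and *Sqstm1* at 290 ± 19.4, and the SD ranges of the last pair overlapped. At the low end were *Tfe3* at 3.60 ± 0.204 CPM per kb and *Atg7* at 2.34 ± 0.234. In KL-/- muscle *Pink1* came first at 481 ± 49.0 CPM per kb and *Ctsd* second at 339 ± 5.41. The coefficient of variation between the 4 samples of a genotype was 1.80% to 16.9% in WT and 1.60% to 22.7% in KL-/- muscle, with *Optn* the most variable in both genotypes.

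**Figure D2:**
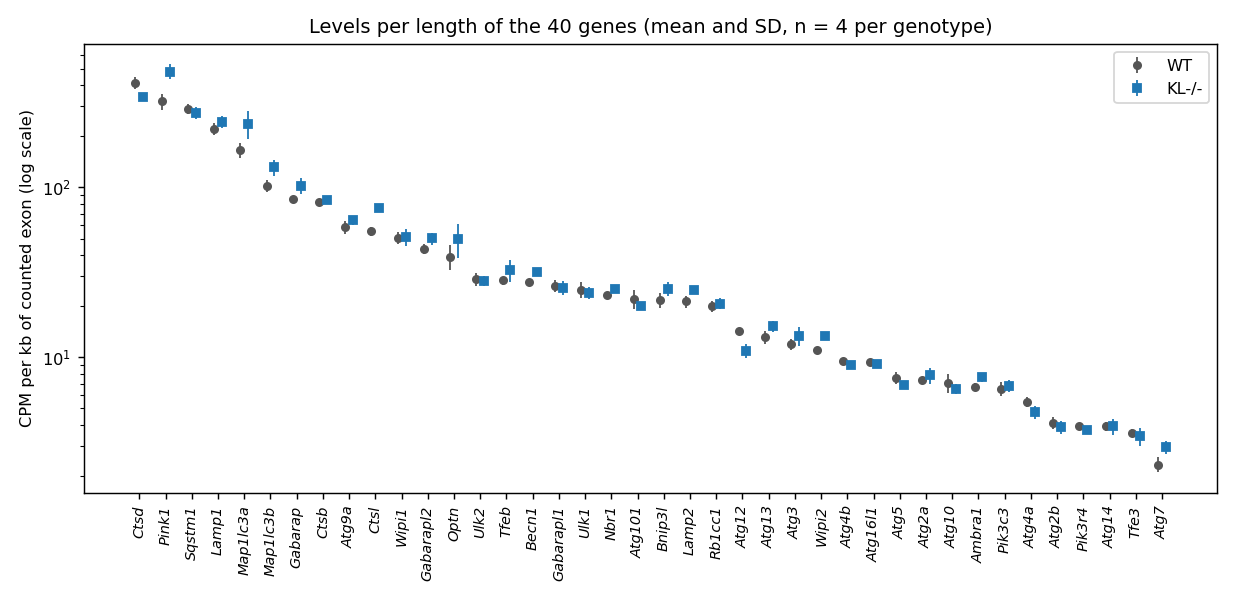
Mean level of 40 genes in CPM per kb of counted exon (vertical log axis), with SD bars, n = 4 per genotype, for WT (circles) and KL-/- (squares), ordered by the WT level. *Ctsd* leads in WT at 412 and *Pink1* in KL-/- at 481, and *Atg7* is the lowest shown in both, with 40 of the 41 genes plotted.

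Among the kinases and scaffolds that initiate autophagosomes, no gene of the ULK1 complex passed. The complex joins the kinases *Ulk1* and *Ulk2* with the scaffold *Rb1cc1* (FIP200) and the subunits *Atg13* and *Atg101*. Log2 fold changes ran from −0.13 for *Atg101* to 0.22 for *Atg13* (FDR = 0.100). *Ulk1* was at 144, 125, 112 and 138 CPM in WT replicates 1 to 4 and at 136, 119, 132 and 113 CPM in KL-/- replicates 1 to 4. The genotypes overlapped throughout, and the log2 fold change was −0.057 (SE 0.092, FDR = 0.699).

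In the PI3K complex, *Becn1* rose. It encodes Beclin 1, the regulatory subunit bound by many activators and inhibitors of autophagy, and lies on chromosome 11, 101288267 to 101302267, of mm10. WT replicates 1 to 4 were at 57.9, 55.6, 56.5 and 54.1 CPM, and KL-/- replicates at 62.4, 60.9, 68.5 and 64.7 CPM. Every KL-/- sample was above every WT sample, WT replicate 1 and KL-/- replicate 2 being the nearest. The means were 56.0 ± 1.61 and 64.1 ± 3.32 CPM (SD, n = 4), with a log2 fold change of 0.20 (SE 0.057, FDR = 0.0498). The call sat at the threshold and passed in 1 of the 8 fits that left out a sample (FDR = 0.0238 without KL-/- replicate 2), with 0.0658 to 0.140 in the other 7. Without TMM factors, on library totals, the FDR was 0.333. *Ambra1*, which recruits Beclin 1, had a similar log2 fold change of 0.20 and no overlap between genotypes, but an FDR of 0.0829. The lipid kinase *Pik3c3*, its partner *Pik3r4* and *Atg14*, which directs the complex to autophagosomes, did not pass, the lowest log2 fold change being −0.077 for *Pik3r4*.

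Of the genes that supply and shape the membrane, *Wipi2* rose. WIPI2 binds the lipid made by the PI3K complex and recruits the conjugation machinery, and its gene spans chromosome 5, 142629584 to 142669370. It was at 43.5, 43.7, 43.6 and 41.0 CPM in WT replicates 1 to 4 and at 49.4, 53.6, 55.0 and 50.1 CPM in KL-/- replicates. The WT samples lay close together, with replicate 4 slightly below, and all KL-/- samples were higher. Mean levels were 43.0 ± 1.29 and 52.1 ± 2.68 CPM (SD, n = 4), and the log2 fold change was 0.28 (SE 0.059, FDR = 0.0171). It passed in 7 of 8 fits with 1 sample left out, the exception being without KL-/- replicate 3 (FDR = 0.0547), and not with library totals (FDR = 0.0691). Its relative *Wipi1* differed little between genotypes (log2 fold change 0.017, FDR = 0.914), and the lipid transfer genes *Atg2a* and *Atg2b* and the scramblase *Atg9a* did not pass either, with *Atg2b* lowest at −0.075.

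The conjugation machinery held the gene with the largest decrease. ATG12 is a ubiquitin-like protein that is joined to ATG5, and the conjugate with ATG16L1 places LC3 on the membrane. *Atg12* (chromosome 18, 46732417 to 46741579) was at 36.5, 35.8, 35.4 and 33.9 CPM in WT replicates 1 to 4. KL-/- replicates were at 24.6, 30.7, 27.0 and 26.5 CPM, all below WT, and replicate 2 was nearest to it. The WT mean was 35.4 ± 1.10 CPM and the KL-/- mean 27.2 ± 2.53 CPM (SD, n = 4), with a log2 fold change of −0.38 (SE 0.075, FDR = 0.0133). The decrease passed in every one of the 8 fits with a sample left out (log2 fold change −0.43 to −0.33).

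Of its partners in the pathway, *Atg5* and *Atg16l1* had log2 fold changes of −0.14 (FDR = 0.238) and −0.053 (FDR = 0.587). *Atg7*, the E1-like enzyme that activates both ubiquitin-like systems, pointed upward with a log2 fold change of 0.34 (SE 0.10, FDR = 0.0557) and narrowly missed the threshold. It was at 10.3, 8.28, 9.04 and 10.1 CPM in WT replicates and at 12.7, 10.9, 13.0 and 11.2 CPM in KL-/- replicates, with no overlap. The E2-like enzymes *Atg3* and *Atg10* and the protease *Atg4b*, which trims Atg8 proteins, did not pass. In all, 6 of the 8 conjugation genes (75.0%) had a negative log2 fold change, against 52.4% of all genes, and only *Atg12* of them passed. The 6 include *Atg4a* by name. The row named *Atg4a* (log2 fold change −0.20, FDR = 0.170) is a single exon on chromosome 3, 103643953 to 103646068, where GENCODE M21 places *Atg4a-ps*, whereas its *Atg4a* lies on chromosome X, 140956907 to 141164270. The row thus holds reads assigned to the position of *Atg4a-ps*, and which of the pair those reads came from is uncertain.

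Both LC3 genes of the Atg8 family, whose lipid-bound products hold cargo receptors on the inner membrane, rose in KL-/- muscle. *Map1lc3a* (chromosome 2, 155276364 to 155278073) was at 187, 187, 168 and 150 CPM in WT replicates 1 to 4 and at 250, 186, 295 and 261 CPM in KL-/- replicates. KL-/- replicate 2 fell just below WT replicates 1 and 2, and the other 3 KL-/- samples were well above all WT samples. Means of 173 ± 17.8 and 248 ± 45.6 CPM (SD, n = 4) gave a log2 fold change of 0.52 (SE 0.13, FDR = 0.0318). Only leaving out KL-/- replicate 2 kept the FDR under 0.05 (FDR = 0.00342), and the other 7 such fits gave 0.0512 to 0.0837. The second gene, *Map1lc3b* (chromosome 8, 121590468 to 121598047), encodes the LC3B protein commonly used as a marker of autophagosomes. Its WT replicates were at 196, 167, 165 and 172 CPM and its KL-/- replicates at 217, 201, 258 and 223 CPM. There was no overlap, with KL-/- replicate 2 and WT replicate 1 the nearest. The means were 175 ± 14.4 and 225 ± 23.8 CPM, with a log2 fold change of 0.36 (SE 0.087, FDR = 0.0274). It passed without WT replicate 1, KL-/- replicate 1 or KL-/- replicate 2, at an FDR of 0.0105 to 0.0425, and reached 0.0546 to 0.0770 in the other 5 fits. With library totals the FDR was 0.0548 for *Map1lc3a* and 0.0662 for *Map1lc3b*.

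The GABARAP genes, which act later in autophagosome closure and fusion, did not pass. *Gabarap* was at 99.7, 95.4, 89.9 and 98.9 CPM in WT replicates and 120, 97.1, 125 and 116 CPM in KL-/- replicates, where replicate 2 alone lay within the WT range. The log2 fold change of *Gabarap* was 0.26 (SE 0.082, FDR = 0.0632), and without KL-/- replicate 2 the FDR was 0.00560. *Gabarapl2* had a log2 fold change of 0.20 (SE 0.076, FDR = 0.100). *Gabarapl1* was at 44.5, 45.7, 44.6 and 52.0 CPM in WT and 47.2, 50.2, 44.3 and 40.0 CPM in KL-/- replicates, a log2 fold change of −0.039 (SE 0.084, FDR = 0.780). Summed over the 5 genes, the family was at 508 to 573 CPM in WT and 580 to 777 CPM in KL-/- muscles. On levels per kb, *Map1lc3a* was the main family member, with 39.1% ± 2.69 of the family in WT and 43.2% ± 2.87 in KL-/- samples (SD, n = 4). The genotypes overlapped in this share (two-sided exact permutation test, p = 0.114), with KL-/- replicate 2 at 39.0%.

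None of the 4 cargo receptors passed. *Sqstm1*, whose product p62 links ubiquitinated proteins to LC3, was the most abundant of them per kb, at 580, 575, 553 and 645 CPM in WT replicates 1 to 4 and 589, 546, 594 and 497 CPM in KL-/- replicates. The genotypes overlapped, and the log2 fold change was −0.080 (SE 0.079, FDR = 0.513). *Nbr1*, a related receptor of ubiquitinated cargo, was higher in every KL-/- sample but by a log2 fold change of only 0.11 (FDR = 0.150). *Optn*, a receptor in mitophagy, had the largest value of the group, 0.34 (SE 0.17, FDR = 0.208). Its KL-/- replicates were at 138, 79.4, 133 and 128 CPM, and WT replicates at 93.8, 85.3, 81.6 and 117 CPM, so that KL-/- replicate 2 was below all other samples and the other 3 KL-/- samples above all WT samples. The mitochondrial receptor *Bnip3l* (NIX) had a log2 fold change of 0.22 (SE 0.088, FDR = 0.120).

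*Pink1* showed the largest increase of the 41 genes. It encodes a kinase that builds up on damaged mitochondria and marks them for mitophagy, and it spans chromosome 4, 138313410 to 138326296. Counts were high in every library, at 863, 722, 669 and 782 CPM in WT replicates 1 to 4 and 1189, 971, 1235 and 1155 CPM in KL-/- replicates. All KL-/- samples were above all WT samples, with KL-/- replicate 2 the lowest of its group and WT replicate 1 the highest of its own. The mean rose by 49.9% on the fitted scale, from 759 ± 83.3 to 1137 ± 116 CPM (SD, n = 4), and the log2 fold change was 0.58 (SE 0.10, FDR = 0.00895). Each fit with 1 sample left out passed, with a log2 fold change of 0.53 to 0.66.

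**Figure D3:**
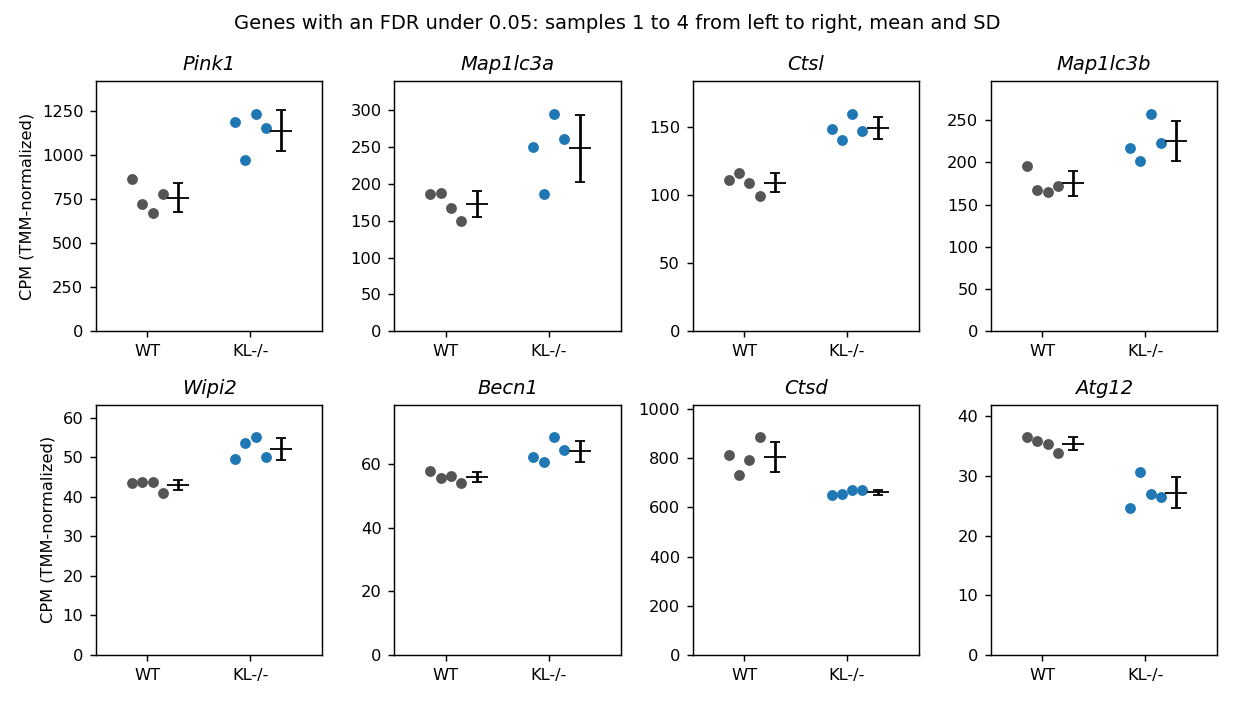
CPM (vertical axes from 0, TMM-normalized) of the 8 genes with an FDR under 0.05, replicates 1 to 4 from left to right within WT and KL-/-, with mean and SD (n = 4) beside them. The genotypes are apart in all panels but *Map1lc3a*, where KL-/- replicate 2 at 186 CPM falls among the WT samples.

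At the lysosome, cathepsin transcripts moved in opposite directions. *Ctsl* (chromosome 13, 64363214 to 64370306), which encodes the cysteine protease cathepsin L, was at 111, 116, 109 and 99.6 CPM in WT replicates 1 to 4 and at 149, 141, 160 and 147 CPM in KL-/- replicates. Every KL-/- sample was above every WT sample. Means were 109 ± 6.91 and 149 ± 8.07 CPM (SD, n = 4), and the log2 fold change was 0.45 (SE 0.065, FDR = 0.00498, the smallest of the 41 genes), and all 8 fits with a sample left out passed (0.41 to 0.49).

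*Ctsd* (chromosome 7, 142375916 to 142387870), the aspartic protease cathepsin D, fell. WT replicates were at 811, 733, 793 and 885 CPM, and KL-/- replicates at 651, 655, 669 and 673 CPM. The KL-/- samples lay within a narrow band under all WT samples. The means were 806 ± 62.5 and 662 ± 10.6 CPM (SD, n = 4), with a log2 fold change of −0.28 (SE 0.069, FDR = 0.0282). It passed without WT replicate 2 (FDR = 0.0356) or KL-/- replicate 2 (FDR = 0.0274) and not in the other 6 fits (FDR = 0.0557 to 0.0721). Exons of *Ctsd* overlap *Gm49369* on its own strand and those of *Becn1* overlap *Cntd1* on the other, and reads shared with them cannot be separated here.

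The ratio of *Ctsl* to *Ctsd* CPM, a measure chosen after the values were seen, was 0.137, 0.158, 0.138 and 0.113 in WT replicates and 0.229, 0.215, 0.239 and 0.218 in KL-/- replicates. It is free of library scaling, and it was higher in every KL-/- sample. *Ctsb*, the cysteine protease cathepsin B, differed little (log2 fold change 0.052, FDR = 0.546), and its exons overlap those of *Fdft1* on the other strand, which had a log2 fold change of 0.70 (FDR = 0.0182). The lysosomal membrane proteins *Lamp1* and *Lamp2* had log2 fold changes of 0.14 (FDR = 0.253) and 0.22 (FDR = 0.0590), and all KL-/- samples of *Lamp2* were above WT.

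Of the transcription factors, *Tfeb*, the main activator of lysosomal genes, was at 86.1, 79.8, 78.1 and 76.2 CPM in WT replicates 1 to 4 and 89.4, 73.4, 104 and 101 CPM in KL-/- replicates. KL-/- replicate 2 was below all WT samples and the other 3 above them. The log2 fold change was 0.20 (SE 0.10, FDR = 0.212), and 0.30 (FDR = 0.0188) without that replicate. The related factor *Tfe3* had a log2 fold change of −0.074 (FDR = 0.650). TFEB and TFE3 act when they enter the nucleus, which transcript levels do not measure.

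Promoter sequences are shown for 4 genes picked after their values were seen: *Ctsd*, which fell, *Ctsl* and *Pink1*, which rose, and *Lamp1*, which did not pass and held the most matches. Each is the 250 bases before the transcription start in RefSeq (GRCm38.p6), read on the strand of the gene, and capitals mark the core TCACGTG of the CLEAR element bound by TFEB, on either strand. The windows are chr7:142387828-142388077 (−) for *Ctsd*, chr8:13158911-13159160 (+) for *Lamp1*, chr13:64370521-64370770 (−) for *Ctsl* and chr4:138326297-138326546 (−) for *Pink1*.
Ctsd: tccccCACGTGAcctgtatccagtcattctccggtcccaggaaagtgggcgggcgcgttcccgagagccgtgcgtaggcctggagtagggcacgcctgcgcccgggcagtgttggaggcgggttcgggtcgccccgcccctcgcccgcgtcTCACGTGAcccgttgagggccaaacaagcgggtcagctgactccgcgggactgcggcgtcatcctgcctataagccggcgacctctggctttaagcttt
Lamp1: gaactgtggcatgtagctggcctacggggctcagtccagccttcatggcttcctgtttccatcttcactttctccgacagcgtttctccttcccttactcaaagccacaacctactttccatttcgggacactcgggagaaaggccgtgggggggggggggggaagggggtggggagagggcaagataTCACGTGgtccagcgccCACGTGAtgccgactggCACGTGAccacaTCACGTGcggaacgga
Ctsl: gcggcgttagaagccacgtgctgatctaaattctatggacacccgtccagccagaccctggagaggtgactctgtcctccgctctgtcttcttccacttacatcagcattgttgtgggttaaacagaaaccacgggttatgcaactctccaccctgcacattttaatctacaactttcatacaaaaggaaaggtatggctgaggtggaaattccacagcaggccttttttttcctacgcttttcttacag
Pink1: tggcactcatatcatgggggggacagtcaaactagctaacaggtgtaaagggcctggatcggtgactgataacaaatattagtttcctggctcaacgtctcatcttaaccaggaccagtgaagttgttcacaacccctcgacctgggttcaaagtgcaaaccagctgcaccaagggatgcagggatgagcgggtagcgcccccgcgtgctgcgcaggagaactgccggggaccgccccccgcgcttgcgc

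The motifs were chosen after the counts had been seen. TCACGTG, or CACGTGA on the other strand with overlapping matches counted once, was found in 1028 of 32851 windows of this length over all RefSeq promoters (3.13%). Windows on chromosome 18, where *Atg12* and *Pik3c3* lie, were left out for the 41 genes but kept among the 32851. *Atg12*, which fell, is therefore not covered. Of the 41 genes, 32 had a window that was used, 37 windows in all, and 4 windows (10.8%) held a match. These were the windows of *Ctsd* at 245 and 99 bases before the RefSeq start, *Lamp1* at 62, 45, 28 and 16, *Atg3* at 95 and 72, and *Atg7* at 133. The *Atg7* window, 114670846 to 114671095 on chromosome 6, lies inside the counted gene, which spans 114643097 to 114860614. The *Ctsl* window, from 64370521, does not adjoin the counted gene, which ends at 64370306. The *Lamp1* window ends at 13159160, past the counted start at 13159135. Its match at 16 thus lies inside the counted gene, and the match at 28 straddles that start. The *Ctsd* window, from 142387828, also overlaps the counted gene, which ends at 142387870, but its matches lie outside it. Windows named *Atg4a* are on chromosome X, and that row was counted on chromosome 3. Of the 4 genes with a match, *Ctsd* fell and the other 3 did not pass. The 4 windows of genes that rose, *Map1lc3b*, *Wipi2*, *Ctsl* and *Pink1*, held none. GTAAACA, or TGTTTAC on the other strand, the core bound by FoxO factors, was in 1040 of all windows (3.17%) and in 0 of the 37. A match describes letters in these windows only.

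Beyond the 41, 129 other genes of autophagy and the lysosome were tested, from lists of 137. Of these, 5 rose and 11 fell, with a median log2 fold change of −0.014. Together these are 12.4% of the 129, near the 14.0% of all genes. All 4 KL-/- samples were above WT in 12 of them and below in 17, 22.5% in all against 19.7% of all genes.

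Among 20 other autophagy receptors, 3 rose and 2 fell (median 0.071). The share that passed was 25.0%, against 14.0% of all genes. In 35.0% of them the genotypes did not overlap, against 19.7% of all genes. The higher genes were *Calcoco1* (0.45, FDR = 0.00759) and *Sec62* (0.37, FDR = 0.0128), receptors for the endoplasmic reticulum, and *Fkbp8* (0.23, FDR = 0.0314), a receptor on mitochondria. *Ncoa4*, which delivers ferritin to lysosomes, fell (−0.47, FDR = 0.0169), as did *Wdfy3*, the adaptor ALFY for protein aggregates (−0.25, FDR = 0.0497). Of 27 other genes of the machinery, 14.8% passed, near the 14.0% of all genes. Among them *Sh3glb1*, a Beclin 1 partner that bends membranes, rose (0.28, FDR = 0.0280). The SNARE *Ykt6* (−0.37, FDR = 0.00926), the scramblase *Tmem41b* (−0.33, FDR = 0.0268) and *Bcl2*, an inhibitor of apoptosis that also binds Beclin 1, fell, the last by 50.1% on the fitted scale (FDR = 0.0111). *Bcl2* was at 6.02 to 8.05 CPM in WT and 2.20 to 4.15 CPM in KL-/- muscles.

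Of 45 other lysosomal enzymes, 1 rose and 5 fell, and 35 of the 45 had a negative log2 fold change (median −0.10). The share that passed, 13.3%, was near the 14.0% of all genes, and the share with a negative value was 77.8%, against 52.4% of all genes. *Ctsz*, cathepsin Z (−0.53, FDR = 0.00771), *Sgsh*, a heparan sulfate sulfatase (−0.56, FDR = 0.00902), *Psap*, the precursor of the saposins (−0.30, FDR = 0.0318), and *Arsa*, arylsulfatase A (−0.70, FDR = 0.0319), were among those that fell, and *Hgsnat*, an acetyltransferase of heparan sulfate breakdown, rose (0.25, FDR = 0.0485). The enzymes summed to 2155 to 2170 CPM in WT and 1832 to 2045 CPM in KL-/- muscles, without overlap. *Psap* alone accounted for 172 of the 266 CPM by which the mean sum fell, and the 44 other enzymes summed to 1204 to 1252 CPM in WT and 1107 to 1188 CPM in KL-/- muscles. *Arsa* lies outside the naming rule and was added after its values were seen. Of 17 subunits of the V-ATPase, the proton pump that acidifies lysosomes, 0 passed in edgeR's test, against 14.0% of all genes, and the median was 0.011. In that test 3 of the 17 had an unadjusted p under 0.05, which 32.1% of all genes reached. Of 20 membrane and sorting genes, *Igf2r*, which carries hydrolases to lysosomes, fell (−0.24, FDR = 0.0485).

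**Figure D4:**
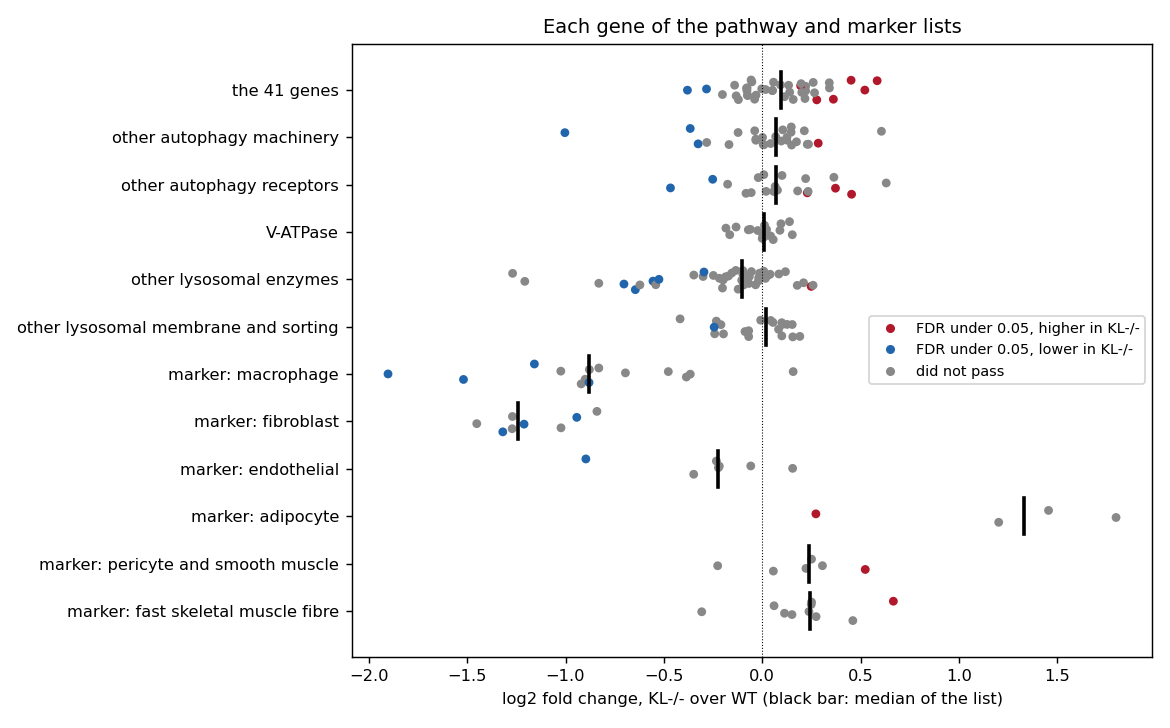
Log2 fold change of KL-/- over WT (horizontal axis) for every gene of the 41, of the other pathway lists and of the cell type marker lists, 1 point a gene, with the median of each list as a black bar. Medians are 0.093 for the 41, −0.10 for the other lysosomal enzymes, −0.88 for macrophage and −1.24 for fibroblast markers.

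Markers of other cell types were measured beside these genes. Of 14 macrophage markers, 4 fell, among them *Cx3cr1* (−1.90, FDR = 0.0225), *Itgam* (−1.16, FDR = 0.0277) and *Adgre1* (−1.52, FDR = 0.0365), with a median log2 fold change of −0.88. The share that passed was 28.6%, against 14.0% of all genes, and 92.9% of the markers were negative, against 52.4% of all genes. Their sum was 85.9, 123, 160 and 77.9 CPM in WT replicates 1 to 4 and 93.5, 86.1, 53.9 and 55.2 CPM in KL-/- replicates, which overlapped. *Ctss* belongs to both the macrophage and the enzyme list.

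Of 8 fibroblast markers, 3 fell (*Dpt*, *Dcn* and *Lum*), with a median of −1.24, and the 8 summed to 935 to 3768 CPM in WT and 516 to 1690 CPM in KL-/- muscles. The share that passed was 37.5%, against 14.0% of all genes. All 8 were negative, each with an unadjusted p under 0.05 in edgeR's test, which 32.1% of all genes reached. Of 7 endothelial markers *Kdr* fell (−0.90, FDR = 0.00781), the median was −0.22, and the list summed to 511 to 712 CPM in WT and 491 to 517 CPM in KL-/-. Of 4 adipocyte markers *Fabp4* rose (0.27, FDR = 0.0300). All 4 were positive, from 0.27 to 1.80 with a median of 1.33, with sums of 184 to 215 CPM in WT and 215 to 290 CPM in KL-/-. Of 6 pericyte and smooth muscle markers *Tagln* rose (0.52, FDR = 0.0394), with a median of 0.24 and sums of 321 to 484 CPM in WT and 352 to 450 CPM in KL-/-. Of 10 fast fibre markers *Actn3* rose (0.67, FDR = 0.0103), with a median of 0.24. Of 15 macrophage and 6 adipocyte markers listed, 14 and 4 were among the genes counted. No counted marker was at 0 in all 8 libraries. The part of cell composition in the changes of *Ctsd*, the other enzymes or the genes that rose was not tested.

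Of the 8 genes that passed, *Pink1*, *Ctsl* and *Atg12* did so in all 8 fits with 1 sample left out and under all 7 other settings that gave a different fit, which changed the scaling, the filter, the test or the design. *Wipi2* passed in 7 of the former and 5 of the latter, *Map1lc3b* in 3 and 5, *Ctsd* in 2 and 6, *Map1lc3a* in 1 and 5, and *Becn1* in 1 and 2. The direction of all 8 was the same in these 15 fits. The count of higher genes depended on the scaling. With library totals 2 of the 41 were higher (*Pink1* and *Ctsl*) and 4 lower (*Ctsd*, *Atg12*, *Atg5* and *Atg4a*), as the median of all genes moved from −0.016 to −0.13. Among all genes that passed, 18.8% were then higher, compared with 52.4% with TMM factors.

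**Figure D5:**
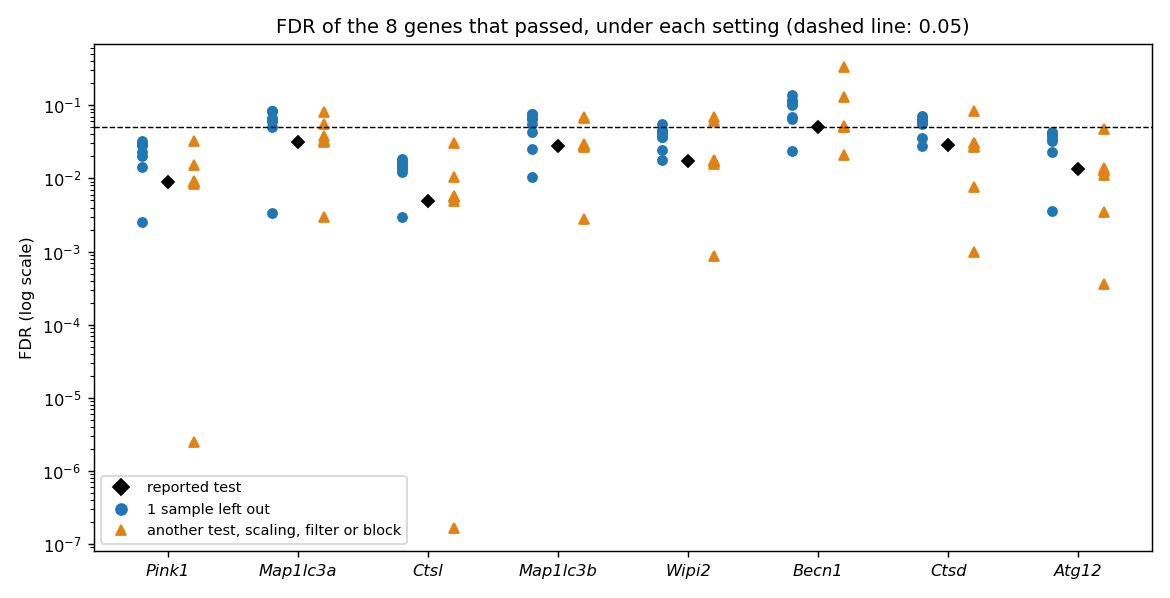
FDR (vertical log axis) of the 8 genes that passed, in the reported test (diamonds), with 1 sample left out (circles) and under another test, scaling, filter or block (triangles). The dashed line is 0.05, and all marks of *Pink1*, *Ctsl* and *Atg12* lie under it, while *Becn1* reaches 0.333.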

How the data were processed

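TA muscle RNA of 4 WT and 4 KL-/- males was sequenced, with 100 ng for each library. The methods speak of mRNA and the labels of total RNA. Per the submitters' processing notes, FastQC, STAR, featureCounts and edgeR were used with mm10. The study's methods add that poorly mapped reads were dropped. The annotation release and strand setting are not given in the sources used here. The authors deposited whole-number counts per gene without normalization, with genotype and replicate taken from the labels.

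Counts were tested in R 4.3.3 with edgeR 4.0.16 (TMM factors, genotype only, quasi-likelihood test, Benjamini-Hochberg adjustment over 12551 genes, FDR under 0.05). The default low-count filter removed 0 genes. A standard error (SE) is the absolute log2 fold change divided by the square root of F. CPM used TMM-scaled totals, and CPM per kb the deposited exon length. A floor of 3 counts was 0.105 to 0.143 CPM, which covers counting error only. No pair of libraries within a genotype agreed within sampling noise. Alternatives were RLE factors, library totals, other filters (at least 10 counts in every sample, or none), DESeq2 1.42.0, limma-voom (limma 3.58.1), the edgeR 3 quasi-likelihood test, a replicate block and each sample left out. The scripts were tested on simulated data.

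The 41 genes and the other lists were chosen with earlier results of these data known. Full statistics are given for the 41 genes with an FDR under 0.05 and for the Atg8 family, *Sqstm1*, *Bnip3l*, *Ulk1*, *Becn1*, *Tfeb*, *Ctsl*, *Ctsd* and *Pink1*, other genes by range with the extremes of each role, up to 4 per direction of each pathway list, and up to 3 per marker list. Values per sample of other genes were added after they were seen. Positions of 40 of the 41 genes overlap the GENCODE M21 gene of that name. Promoters are from RefSeq (GRCm38.p6), for 32 of the 41, with windows on chromosome 18 left out. One of the 41 genes and 1 lysosomal enzyme are not reported here on their own, and counts, medians and sums still include them.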

Additional observations from a re-analysis of the deposited data

Results flagged for a closer look

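In 132 groups of 4 samples, those of the 41 genes and of the other named genes in each genotype, 11 had 1 sample far from the other 3, by Dixon's test on the gap over the range. Chance alone gives about 1 in 20 groups. Of the 41 genes, *Gabarapl1* in WT replicate 4 was at 52.0 CPM with the other WT samples at 44.5 to 45.7. *Wipi1* in the same sample was at 103 CPM with the others at 87.3 to 88.9, and *Wipi2* there was at 41.0 CPM with the others at 43.5 to 43.7. *Optn* in KL-/- replicate 2 was at 79.4 CPM with the others at 128 to 138, and *Atg5* in that sample was at 15.5 CPM with the others at 16.4 to 16.5.

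Among other genes, *Tmem41b* in KL-/- replicate 2 was at 20.0 CPM with the others at 17.2 to 17.3, and in WT replicate 3 at 20.6 CPM with the others at 23.0 to 23.2. *Psap* in KL-/- replicate 2 was at 857 CPM with the others at 709 to 734. *Bcl2* in KL-/- replicate 3 was at 2.20 CPM with the others at 3.82 to 4.15. *Ctsz* in WT replicate 1 was at 25.8 CPM with the others at 31.1 to 31.8, and *Igf2r* in WT replicate 3 was at 151 CPM with the others at 134 to 136. Of the 11 samples, 4 are KL-/- replicate 2 and 3 are WT replicate 4.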

How the results depend on the processing

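With library totals, 2 of the 41 genes were higher and 4 lower, and 2 and 26 of the other pathway genes. With DESeq2, 12 of the other pathway genes were higher. Replicate numbers of the 2 genotypes were used as a block in another fit, although the labels name no pairing. Deviations of same-numbered samples had correlations of −0.146, 0.181, −0.368 and 0.017. These few values cannot show whether the numbers pair the mice. With the replicate block, 2 of the 41 were higher (*Pink1* and *Ctsl*) and 1 lower (*Atg12*), 2 and 5 of the other pathway genes, and 671 of all genes. With 1 sample left out, 2 to 13 of the 41 were higher and 1 to 2 lower, 2 to 16 and 5 to 19 of the other pathway genes, and 762 to 2755 of all genes. The lowest count of all genes came without KL-/- replicate 3 and the highest without KL-/- replicate 2. The other settings left every count within 1.5 times. No filter on low counts gave the reported fit again, since the filter removed 0 genes.

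Reversed log2 fold changes were all of genes that did not pass. With library totals these were *Nbr1* (−0.0051), *Rb1cc1* (−0.067), *Pik3c3* (−0.061), *Atg2a* (−0.024), *Wipi1* (−0.10) and *Ctsb* (−0.066), where that scaling moved the median of all genes to −0.13. *Atg14* was at 0.0046 with RLE factors and 0.0032 with DESeq2. With 1 sample left out, *Ulk2* ranged from −0.082 to 0.016, *Atg14* from −0.059 to 0.057, *Wipi1* from −0.037 to 0.097 and *Gabarapl1* from −0.081 to 0.018. Why single samples change the calls was not tested. With 4 mice per genotype, an FDR above 0.05 does not show that a gene was the same in both.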
